A study of Drosophila melanogaster with 2 samples.

Results

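The DNA replication and cell cycle genes are 44 of the 13968 protein-coding genes of the fly annotation. They were taken from a list of gene symbols: the proteins that mark, load and fire replication origins, the machinery that copies DNA, and the cyclins, kinases, transcription factors and brakes that time it. Each peak was given to the protein-coding gene whose transcription start site (TSS) lay nearest to the peak's summit. The values are chromatin immunoprecipitation followed by sequencing (ChIP-seq) of a CG32532-eGFP fusion protein, expressed from a transgene in Drosophila melanogaster and pulled down with an antibody against GFP. CG32532 encodes a predicted paired-class homeodomain protein. The chromatin came from whole embryos aged 8 to 24 h, sheared to between 200 and 800 bp. There were 2 biological replicates of 1 group and no second condition, so nothing here compares treatments or genotypes. Library depth is unknown, because the peak lists carry no counts of reads. A whole embryo mixes many cell types, and strong binding in few cells cannot be told apart from weak binding in many.

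The origin recognition complex sits on replication origins, where Cdc6 and dup (the fly Cdt1) load the ring-shaped MCM helicase before S phase, and geminin blocks dup so that each stretch of DNA is copied once. Cyclin-dependent kinases then fire the origins, and the clamp, its loader, the primase and the polymerases copy the DNA. In flies many of these genes are switched on together by the E2F/Dp activator, which Rbf holds back, and by DREF, a factor that binds the letters TATCGATA in the promoters of replication and growth genes. In embryos of these ages many tissues leave the mitotic cycle, some go on copying their DNA without dividing, and neural precursors keep dividing.

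The replicated set, the authors' conservative list of 5325 peaks, placed a summit nearest to 13 of the 44 genes (29.5%, exact 95% binomial interval 16.8 to 45.2%), against 24.7% of all protein-coding genes. A share this close to the background does not set the genes apart. Counting a gene when any of its TSS lay within 500 bp of a summit, which lets both genes of a shared start count, gave 16 of 44 (36.4%, interval 22.4 to 52.2%), against 24.3% of all genes. The intervals treat genes as independent draws and cover counting error only. Together the rules found 17 genes, 12 of them by both, and left 27 with none.

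The authors' other peak sets gave like counts. Their longer optimal set had 15 genes nearest to a summit (34.1%) against 31.5% of all genes, and 18 with a summit within 500 bp (40.9%) against 29.8%. Replicate 1 on its own gave 12 (27.3%) against 20.5%, and 16 within 500 bp (36.4%) against 20.1%. Replicate 2 on its own gave 13 (29.5%) against 28.7%, and 14 within 500 bp (31.8%) against 27.4%. In each of the 4 sets the genes' share lay above that of all genes. The sets come from the same 2 libraries and do not repeat each other independently.

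The share of genes with a replicated summit within 500 bp differed between the roles, and over all genes it was 24.3%. The roles hold 2 to 7 genes each, and none was tested against that share. None of the 5 origin recognition genes and none of the 5 clamp and loader genes had a replicated summit within 500 bp, and neither did 5 of the 7 MCM genes or 5 of the 6 polymerase and primase genes. Peaks lay at dup and geminin of the 3 licensing genes, at 1 of 2 ribonucleotide reductase genes, 2 of 4 cyclins, 2 of 3 cyclin-dependent kinases, 3 of 5 E2F, Rb and DREF regulators and 3 of 4 brakes and mitotic regulators. Pooled after these values were seen, the replication genes (origin, licensing, helicase, clamp, polymerase and nucleotide supply genes, geminin among them) had a peak in 6 of 28 (21.4%), near the 24.3% of all genes, and the regulators (the other roles) in 10 of 16 (62.5%). Replicate 1 on its own gave 7 of 28 (25%) and 9 of 16 (56.2%), against 20.1% of all genes. Replicate 2 gave 7 of 28 (25%) and 7 of 16 (43.8%), against 27.4%. The replication genes thus stood near the background in these sets, and the contrast between the pools was not tested.

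**Figure D1:**
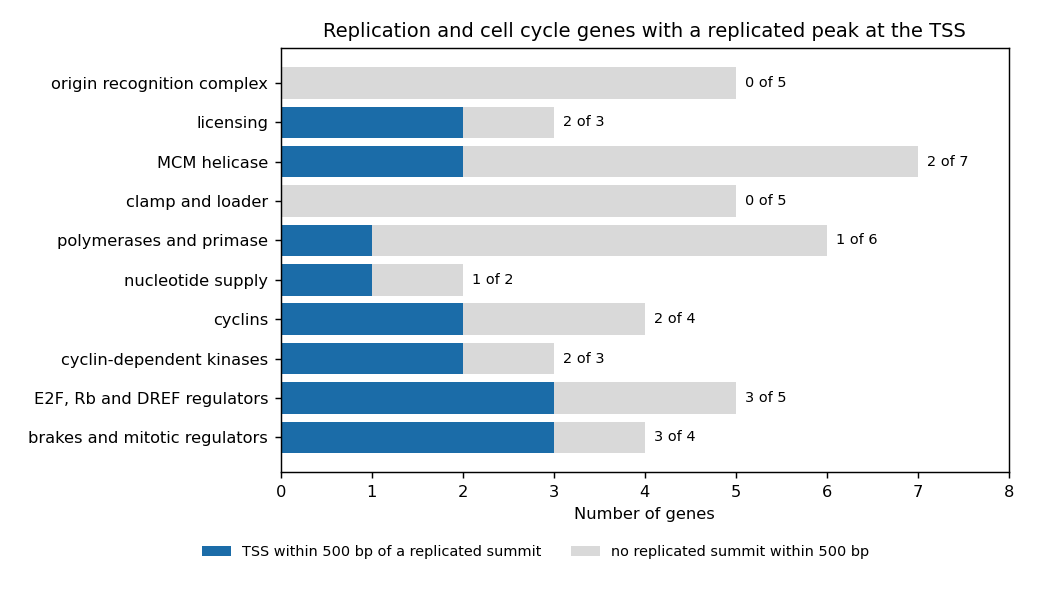
Number of genes in each role (bar length) and how many had a replicated summit within 500 bp of a TSS (blue). The 5 origin recognition genes and the 5 clamp and loader genes had none. Of the E2F, Rb and DREF regulators 3 of 5 had one, and of the brakes and mitotic regulators 3 of 4. Over all genes 24.3% had one, and these small groups were not tested against that share.

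Several annotated starts were listed for 9 of the 16 regulators and 5 of the 28 replication genes, and a gene with more starts has more places that can lie within 500 bp of a summit. Over all genes, 18.8% of those with 1 annotated TSS had a summit within 500 bp, and 39.7% of those with several. Among the genes with 1 TSS, 3 of 23 replication genes (13.0%) and 3 of 7 regulators (42.9%) had a peak. Among those with several, 3 of 5 replication genes (60%) and 7 of 9 regulators (77.8%) did. For genes with several starts this order held in the replicated set alone of the 4 sets: the optimal set and replicate 1's own set each had 4 of 5 replication genes (80%) and 7 of 9 regulators (77.8%), and replicate 2's had 3 of 5 (60%) and 4 of 9 (44.4%).

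Signal is the strength of a peak as the authors deposited it, in a unit that is not stated. For each replicate it was divided by the median over the replicated peaks, 67.8 in replicate 1 and 116 in replicate 2, so that 1 stands for a typical replicated peak. The 44 genes held 23 replicated peaks, of which 2 at Cdk4 overlap and share their values, leaving 22 distinct measurements. Of these, 12 lay above the typical peak in both replicates and 5 below it in both. The shares over all replicated peaks are not given beside these counts, so the counts do not set these peaks apart. The strongest peak of the 13 genes nearest to a summit had a median of 1.61 times the typical peak, against 1.19 over all genes with a peak. For the 16 genes with a summit within 500 bp the median was 1.19, against 1.17 over all such genes. At gene starts the median was thus near that of all bound genes. The medians of 1.61 and 1.19 by the nearest rule both include peaks farther from a start. Why those 2 medians differ was not tested.

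**Figure D2:**
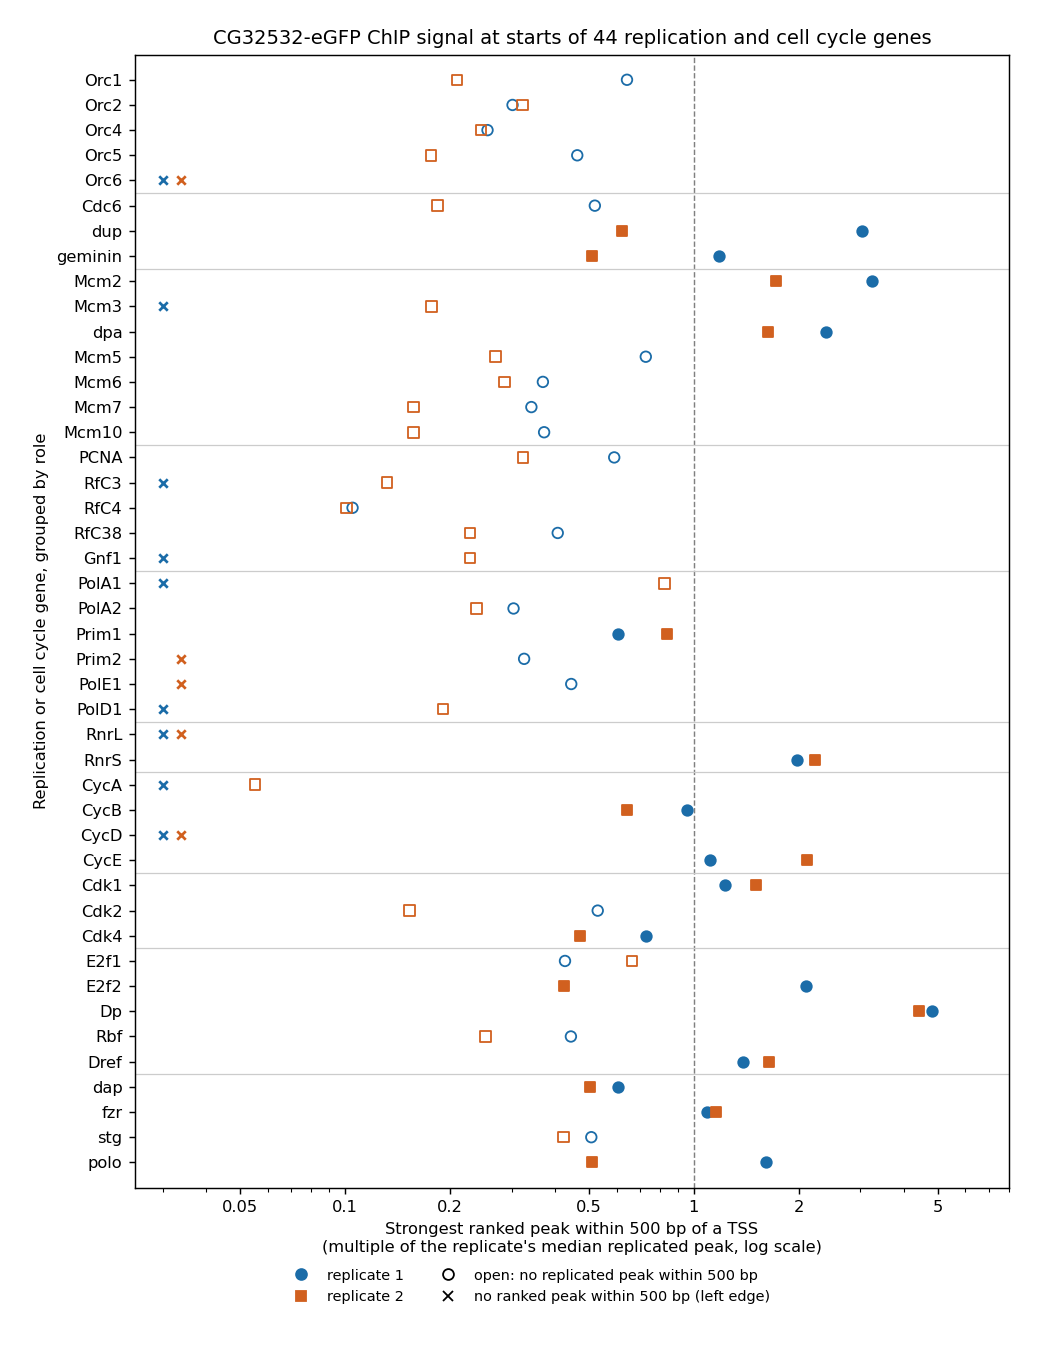
Strongest ranked peak within 500 bp of a TSS in each replicate, as a multiple of the median replicated peak (log axis), for each of the 44 genes grouped by role. Filled symbols mark the 16 genes with a replicated summit there, open symbols those without, and crosses at the left edge genes with no ranked peak; Dp stands highest at 4.81 and 4.41.

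The sequences below show the 4 strongest replicated peaks at a TSS among the genes, with 1 chromosome arm left aside. Each is up to 100 bases around the summit, shortened where an exon begins, on the strand of the gene and read from the reference genome (Release 6, the dm6 assembly). Capitals mark the searched letters within the printed stretch: ATCGAT, the core of the DREF site, in Dref, and TAATTA, a homeodomain core, in Cdk1. Outside these stretches, the 200 bp window of the CycE summit also held AACAGCTG, and that of Dref held GAGAG. Mcm2 is chr3R:8264830-8264929, CycE is chr2L:15747001-15747096, Dref is chr2L:9967230-9967289 and Cdk1 is chr2L:10386473-10386572.
Mcm2: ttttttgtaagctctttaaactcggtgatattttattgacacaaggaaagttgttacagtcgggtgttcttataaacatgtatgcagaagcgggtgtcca
CycE: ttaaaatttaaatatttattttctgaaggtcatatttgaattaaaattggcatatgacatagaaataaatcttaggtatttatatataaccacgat
Dref: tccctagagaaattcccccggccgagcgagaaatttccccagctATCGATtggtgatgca
Cdk1: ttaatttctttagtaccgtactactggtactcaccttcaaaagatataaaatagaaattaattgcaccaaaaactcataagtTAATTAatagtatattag

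The GC content of the printed stretches ran from 19.8% in CycE and 25% in Cdk1 to 37.0% in Mcm2 and 53.3% in Dref. Over the 50 bp at the summits of all 23 peaks it ran from 16.0 to 62.0% with a median of 34%, against 36.0% over all replicated peaks. These peaks had no base composition in common.

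Among the licensing genes, geminin and dup had peaks and Cdc6 did not. geminin, the inhibitor, had its summit 24 bp upstream of a TSS in an untranslated exon (chromosome arm 2R, position 6656425), with a signal of 79.8 in replicate 1 and 59.5 in replicate 2. That is 1.18 and 0.51 times the typical peak, or 0.84 ± 0.47 (SD, n = 2), so the replicates put it on opposite sides of a typical peak. The summit at dup, which loads the helicase and is what geminin inhibits, lay 335 bp upstream and nearer to the start of the kinase gene SRPK. Its signals were 81.5 and 72.6, or 0.91 ± 0.41 times the typical peak. Replicate 1 also had a stronger peak, of 206, 89 bp upstream of a dup TSS, with the highest score the files use, while the strongest replicate 2 peak within 500 bp was the one of 72.6. Cdc6, the other loader, had 35.2 and 21.4 at its start, under the authors' threshold in both, and its closest replicated summit was 4944 bp away.

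The MCM helicase genes were split. Mcm2, a subunit of the ring, had a peak of 220 in replicate 1 and 200 in replicate 2 with its summit 90 bp upstream of the TSS (FBgn0014861; arm 3R, 8264880). This was 2.48 ± 1.08 times the typical peak, above it in both replicates but 3.25 times in one and 1.72 in the other. A TSS of RPA1, the large subunit of the single-strand binding complex, also lay within 500 bp of this summit. dpa, the fly Mcm4, had 162 and 189 (2.01 ± 0.54) with its summit 112 bp upstream of a TSS, and shares its start with didum, an unconventional myosin, on the other strand 2 bp away. Both were clear of the typical peak in both replicates. Mcm3, Mcm5, Mcm6 and Mcm7, the other subunits listed, had no replicated peak, nor did Mcm10, which joins the helicase when origins fire. Of these, Mcm5 came nearest, with 49.4 in replicate 1, enough for that replicate's own set, and 31.4 in replicate 2. Mcm3 had no ranked peak at its start in replicate 1 and 20.6 in replicate 2.

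The origin recognition genes had no replicated peak at their starts. The signals at the starts of Orc1, Orc2, Orc4 and Orc5 ran from 17.3 to 43.6 in replicate 1 and from 20.5 to 37.6 in replicate 2, all under the typical peak and under the threshold. Orc1, a subunit that binds and uses ATP, was the highest in replicate 1 at 0.643 times the typical peak and had 0.209 in replicate 2. With an absent peak taken as 0, the median over all genes was 0.324 in replicate 1 and 0.227 in replicate 2. Orc1 and Orc5 (0.463) lay above this median in replicate 1, and Orc2 (0.323) and Orc4 (0.245) in replicate 2. The other values of Orc1, Orc2, Orc4 and Orc5 lay below it. Orc6, the smallest subunit, had no ranked peak within 500 bp in either replicate. The closest replicated summit to any of the 5 genes was 1381 bp away, at Orc6.

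The clamp and clamp loader genes had no peak at their starts in the replicated set either. PCNA, the sliding clamp, had 40.1 in replicate 1 and 37.6 in replicate 2, and passed the threshold in replicate 1 and in the optimal set. The loader subunit genes RfC3, RfC4, RfC38 and Gnf1 (the large subunit) had at most 27.6 in replicate 1 and 26.6 in replicate 2, and RfC3 and Gnf1 had no ranked peak in replicate 1. The closest replicated summit to PCNA lay 1073 bp off.

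Among the polymerases, Prim1, the catalytic primase subunit, had a replicated peak. It stood at 40.9 in replicate 1 and 97.7 in replicate 2 (0.72 ± 0.17), 299 bp downstream of its TSS in an intron and nearer to the start of CG7083. It was under the typical peak in both replicates. PolA1, the catalytic subunit of polymerase alpha, differed between the replicates. It had no ranked peak at its start in replicate 1, and in replicate 2 a peak of 95.9 with the highest score, 99 bp upstream of the TSS. PolA2 (its second subunit), Prim2 (the other primase subunit), PolE1 and PolD1 (the catalytic subunits of polymerases epsilon and delta) had no more than 30.2 in replicate 1 and 27.6 in replicate 2. The subunits of ribonucleotide reductase, which makes the DNA building blocks, differed from each other. RnrS, the small subunit, had 134 and 258 (2.10 ± 0.18) with its summit 176 bp upstream, above the typical peak in both replicates. This summit also lay within 500 bp of a TSS of CG34231. RnrL, the large subunit, had no ranked peak at its start in either replicate.

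The strongest peak given to any of the genes belonged to CycB, the mitotic cyclin, and lay away from its start. Its signal was 418 in replicate 1 and 678 in replicate 2, 5.99 ± 0.23 times the typical peak and rank 137 of 5325. The summit (arm 2R, 22802968) was 3335 bp downstream of the nearest CycB TSS, past the end of the gene in intergenic sequence. The peak goes to the next gene, blw, a subunit of the mitochondrial ATP synthase, when only gene 5′ ends count. At the CycB start itself a second peak had 64.7 and 74.9 (0.80 ± 0.22), 107 bp upstream and under the typical peak in both replicates. CycE, the cyclin that drives entry into S phase, had 75.0 and 246 (1.61 ± 0.71) in an intron, 437 bp upstream of one TSS and 1103 bp downstream of the gene's 5′ end (FBgn0010382; arm 2L, 15747047). Both replicates were above the typical peak, 1.11 times in replicate 1 and 2.11 in replicate 2. CycA, another mitotic cyclin, had no ranked peak at its start in replicate 1 and 6.40 in replicate 2, and CycD, the G1 cyclin, had none in either.

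Of the cyclin-dependent kinases, Cdk1, the mitotic kinase, had 83.3 and 176 (1.37 ± 0.20) at a summit 261 bp upstream, in the 400 bp between its start and that of mRpS7, a mitochondrial ribosomal protein gene that lies nearer (FBgn0004106; arm 2L, 10386523). Cdk4, the partner of CycD, was nearest to 4 replicated peaks, a number reached by 199 of all genes (1.42%). Its strongest peak, 83.1 and 179 (1.38 ± 0.22), lay 624 bp upstream of the first TSS. A weaker peak of 49.3 and 55.0 (0.60 ± 0.18) lay 272 bp downstream of a TSS. The remaining peaks, 973 and 1214 bp downstream, overlap and take their signal of 37.1 and 78.5 from the same replicate peaks, so they are 1 measurement and not 2. Cdk2, the partner of CycE, had 35.9 and 17.8 at its start, and its closest replicated summit was 21141 bp away.

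The E2F, Rb and DREF group held the strongest replicated peak at a start of any of the 44 genes. Dp, the partner that E2F proteins need to bind DNA, had 3 replicated peaks. The strongest had 327 in replicate 1 and 513 in replicate 2, 4.61 ± 0.28 times the typical peak and rank 235, 209 bp upstream of an internal TSS in an intron (arm 2R, 13223382). The others had 147 and 284 (2.30 ± 0.19), 411 bp downstream of a TSS, and 110 and 75.7 (1.14 ± 0.69), 49 bp upstream of the first TSS and beside Fsn, which starts 26 bp away on the other strand. The first 2 of the 3 were well above a typical peak in both replicates. Dref, which encodes the DREF factor itself, had 93.3 and 191 (1.51 ± 0.19) at a summit 11 bp upstream of its TSS (FBgn0015664; arm 2L, 9967240), and RpL13, a ribosomal protein gene, starts 84 bp away on the other strand. E2f2, the repressor E2F, had 141 and 49.3, or 2.09 times the typical peak in replicate 1 and 0.42 in replicate 2 (1.25 ± 1.18), 44 bp upstream of a TSS and nearer to Mpp6. E2f1, the activator, had no replicated summit at a start but had 97.5 and 215 (1.64 ± 0.29) in an intron 4730 bp downstream of its nearest TSS. At its starts replicate 2 had a ranked peak of 77.4 with the highest score, which is in none of the thresholded sets, and replicate 1 had 29.0. Rbf, the fly Rb, had 30.1 and 29.4, under the threshold in both.

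Among the brakes and mitotic regulators, fzr, the activator of the anaphase-promoting complex that lets cells leave the cycle, had 73.6 and 135 (1.12 ± 0.05), 467 bp upstream of a TSS within an exon of Pp2C1. polo, the mitotic kinase, had 109 and 59.5, or 1.61 and 0.51 times the typical peak (1.06 ± 0.78), 98 bp upstream of a TSS. dap, the inhibitor of CycE/Cdk2 that ends the cycle in the embryo, had 41 and 58.5 (0.55 ± 0.07) at 51 bp upstream, under the typical peak in both and rank 5096. fzr repeated closely, while polo lay on opposite sides of a typical peak. stg, the phosphatase that triggers mitosis, had 34.5 and 49.2 at its starts, and its closest replicated summit was 3641 bp away.

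Of the 23 peaks, 18 had a summit that lay within 500 bp of one of the genes' TSS and 15 of those lay upstream of that TSS. For dpa, geminin, polo, E2f2, CycE and the strongest Dp peak this was an inner TSS, and the summit lay downstream of the gene's 5′ end. Both replicates' own sets held 16 of the 23, replicate 1's alone 3 and replicate 2's alone 4. The shares over all replicated peaks are not given for these counts. Relative to the typical peak, 10 of the 22 distinct measurements were higher in replicate 2, as were 48.9% of all replicated peaks, and 4 had a log2 ratio of replicate 2 over replicate 1 of -1 or lower: E2f2 (-2.30), polo (-1.66), Dp at its first TSS (-1.32) and geminin (-1.20). Over all replicated peaks 5.11% were that low, and the SD of the ratio was 0.55. None of the 23 had a ratio of 1 or higher. All 4 lay in exons outside coding sequence, a class that takes in exons of non-coding genes too. There the 8 peaks of these genes had a median ratio of -0.91 and 6 were lower in replicate 2. Over all replicated peaks in such exons the median was -0.13 and 60.5% were lower. The 7 intronic peaks had a median of 0.30 (0.06 over all intronic peaks) and the 8 intergenic ones 0.05 (-0.06 over all). The overlapping Cdk4 peaks enter once as an intron and once as an exon. This split was made after the ratios were seen, and whether the libraries' depth or fragment size goes with it was not tested.

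**Figure D3:**
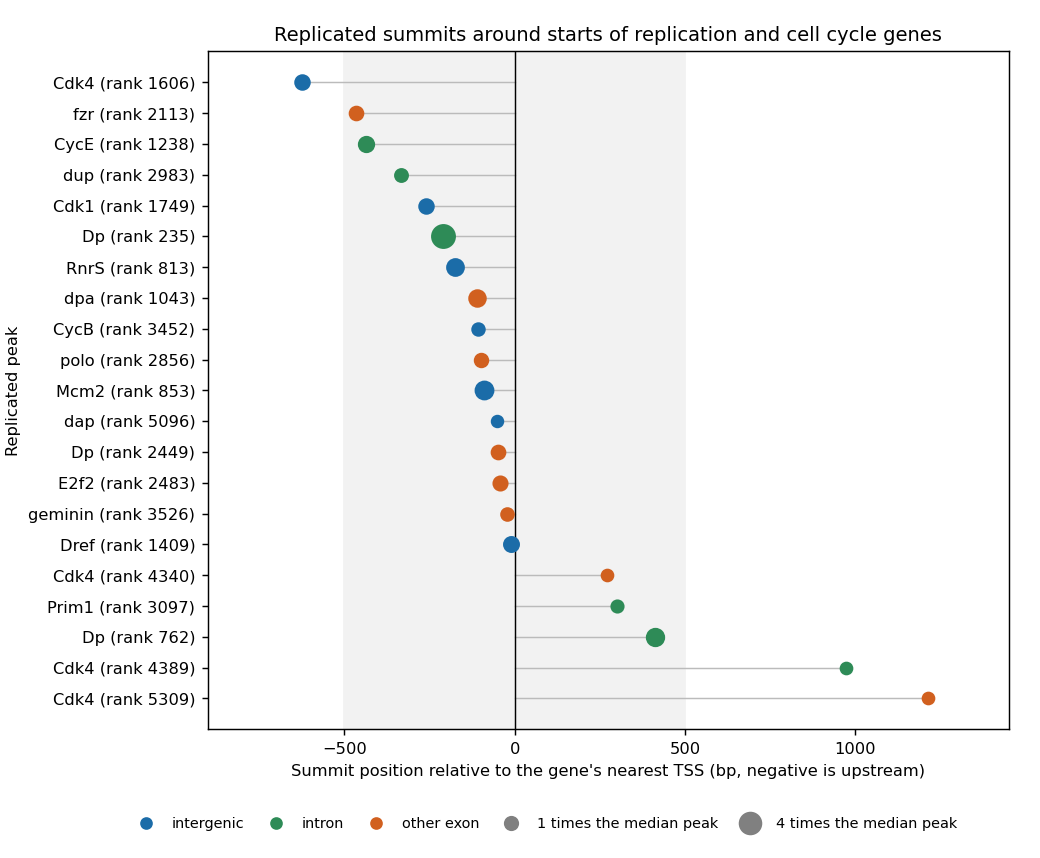
Position of each replicated summit relative to the nearest TSS of the gene (bp, negative is upstream), coloured by what lies at the summit and sized by the mean multiple of the typical peak, with the 500 bp limit shaded. Most summits lie within 500 bp and upstream of the nearest TSS, which for several genes is an inner TSS and not the 5′ end. The CycB peak at 3335 bp and the E2f1 peak at 4730 bp fall outside the axis and are not drawn.

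Where the genes lie went with the counts in other ways. Of the 14 genes whose start lies within 500 bp of another gene's start, 7 had a replicated summit within 500 bp, and of the other 30, 9 did. Over all genes the shares were 43.2% and 15.9%. On arm 2R, 8 of the 12 genes had a peak, and on the other arms 8 of 32, while over all genes 23.7% and 24.5% did. On arm 3R, 1 of the 10 genes did, which was Mcm2. The arms were compared after the values were seen.

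The ranked lists were also read without the threshold. A ranked peak of any strength lay within 500 bp of a TSS for 35 of the 44 genes in replicate 1 (79.5%, against 75.9% of all genes) and for 39 in replicate 2 (88.6%, against 70.6%). With an absent peak taken as 0, the median gene stood at 0.485 times the typical peak in replicate 1 (0.324 over all genes) and 0.278 in replicate 2 (0.227). The typical peak was reached by 12 of the 44 in replicate 1 (27.3%, against 15.9%) and 8 in replicate 2 (18.2%, against 14.4%). RnrL, CycD and Orc6 had no ranked peak in either replicate.

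The promoters, from 250 bp before to 50 bp after each gene's 5′ end, were searched on both strands for 9 sets of letters in all. The DREF site TATCGATA stood in 9 of the 44 promoters (20.5%), against 9.36% of all protein-coding promoters: those of Orc2, Orc5, PCNA, Gnf1, PolA1, PolA2, Prim2, CycA and Cdk2. None of the 9 had a replicated summit within 500 bp (0 of 9, exact interval 0 to 33.6%), against 16 of the 35 without the site (45.7%). Over all genes the order was the other way, with a peak at 38.7% of the genes with the site and 22.8% of those without. In the optimal set 1 of the 9 had a peak (PCNA), as did 1 in replicate 1's own set (PCNA) and 1 in replicate 2's (PolA1). The closest replicated summit to these sites lay between 1053 bp away, at PCNA, and 21080 bp away, at Cdk2.

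Promoters of PolA1 and Cdk2 show such sites. They were chosen after the values were seen, as examples, and each ends at the base before the TSS. Capitals mark TATCGATA and its core ATCGAT. PolA1 is chr3R:21671751-21671950 on the minus strand and Cdk2 is chr3R:20735543-20735622 on the plus strand. The site occurs 3 times in the former, centred at -193, -59 and -6 bp from the TSS, and in the latter once, at -57 bp, beside a second core.
PolA1: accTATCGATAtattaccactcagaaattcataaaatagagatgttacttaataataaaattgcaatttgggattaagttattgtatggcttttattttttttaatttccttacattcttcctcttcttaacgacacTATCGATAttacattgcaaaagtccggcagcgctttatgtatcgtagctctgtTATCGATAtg
Cdk2: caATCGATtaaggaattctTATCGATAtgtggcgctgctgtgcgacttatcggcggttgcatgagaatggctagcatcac

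At the peaks of these genes the site was absent, as it was at most of all replicated peaks. None of the 23 windows of 200 bp around the summits held TATCGATA, against 4.51% of all replicated peaks and 8.12% of those at a TSS. The core ATCGAT, a part of the site, stood in 17 of the 44 promoters (38.6%, against 23.3%), and 2 of those 17 genes had a peak, CycB and Dref (11.8%, against 51.9% of the genes without the core and 31.5% of all genes with it). In the windows the core stood in 3 of 23 (13.0%, against 12.2% of all replicated peaks). A match to these letters is not a site in use, and no match says only that the letters are not in the window.

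E2F-type words (TTTCCCGC, TTTGGCGC, TTTCGCGC or TTTGCCGC) stood in 14 of the 44 promoters (31.8%), against 6.41% of all promoters. They were in Orc1, Orc4, Orc5, Orc6, Mcm2, Mcm3, Mcm5, Mcm6, RfC4, Prim2, PolE1, RnrL, RnrS and stg. Of the 14, Mcm2 and RnrS had a replicated peak (14.3%, exact interval 1.78 to 42.8%), against 14 of the 30 without a word (46.7%) and 26.8% of all genes with one. The optimal set gave 3 of 14 (21.4%, against 35.5% of all genes with a word) and replicate 2 gave 2 of 14 (14.3%, against 31.1%). Replicate 1 gave 3 of 14 (21.4%), about the 22.2% of all genes with a word. At the peaks themselves, E2F-type words stood in 2 of the 23 windows, those of dpa and Prim1 (8.70%, against 3.83% of all replicated peaks). Taking both kinds of letters together, a grouping made after the values were seen, 2 of the 21 genes with either had a peak (9.52%, against 33.9% of all such genes) and 14 of the 23 with neither (60.9%, against 22.6%). Of the 21 genes, all but CycA, Cdk2 and stg are replication genes. The contrast by letters and that between the pools of roles thus largely count the same genes and cannot be told apart.

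**Figure D4:**
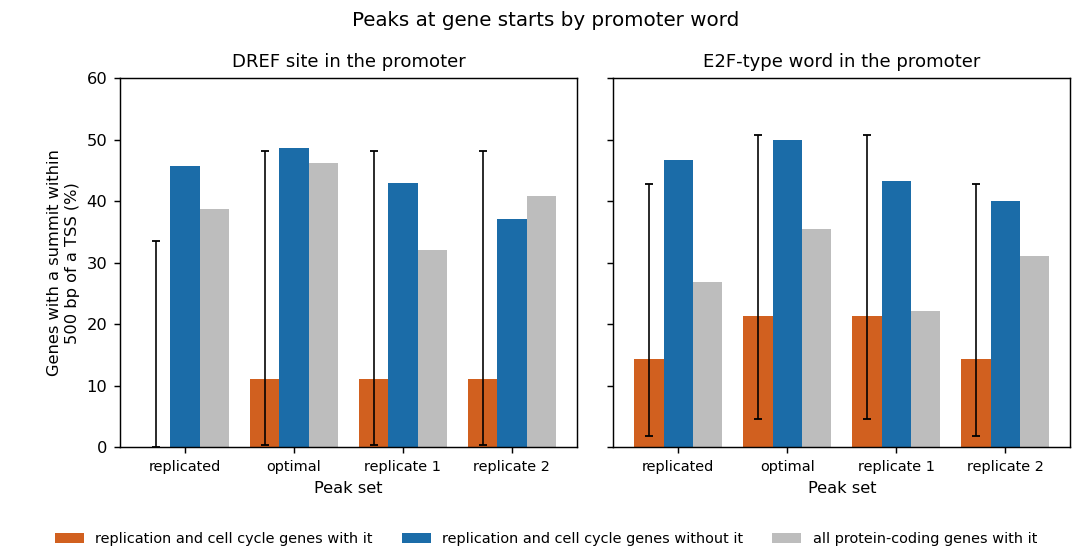
Share of genes with a summit within 500 bp of a TSS (%), in each peak set, for the replication and cell cycle genes with and without the letters at the gene's 5′ end and for all protein-coding genes with them; error bars are exact 95% binomial intervals. The 9 genes with the DREF site had 0 to 1 peak in every set, and the 14 with an E2F-type word 2 or 3.

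The E2F part of this contrast depended on which promoters were searched. With the promoters of all annotated starts, a search added after the values were seen, dpa, dup, CycB and CycE also held an E2F-type word, and 6 of 18 genes with one had a peak (33.3%), against 32.0% of all genes with one. With the same search 10 genes had the DREF site, and Cdk4, which joined the 9, was the 1 with a peak; its site lay 404 bp from the closest summit. With either kind the counts became 7 of 26 (26.9%, against 36.0% of all such genes) and 9 of 18 with neither (50%, against 21.8%). Of the genes with either kind at the 5′ end 2 of 21 had several starts, and of those with neither 12 of 23. Among genes with 1 annotated TSS, 0 of 8 with the DREF site had a peak, against 34.1% of all such genes, and 2 of 13 with an E2F-type word (15.4%, against 18.7%).

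A lower share of peaks among the genes with given letters was not limited to the DREF and E2F-type letters. It was 2 of 11 genes (18.2%) with TAATTA in the promoter and 42.4% without, and 2 of 9 (22.2%) and 40.0% for CAGCTG. It was 0 of 3 genes and 39.0% for AACAGCTG, and 1 of 5 (20%) and 38.5% for GGTCACACT. For GAGAG it was the other way round, at 3 of 6 (50%) and 34.2%. Over all genes the share was higher with the letters. It was 27.4% with TAATTA and 23.5% without, and 31.3% and 22.8% for CAGCTG. It was 36.7% and 23.3% for AACAGCTG, 36.7% and 23.5% for GGTCACACT, and 24.8% and 24.1% for GAGAG. The remaining letters were found in few of the windows. The homeodomain core TAATTA stood in 3 of the 23 windows (13.0%, against 15.2% of all replicated peaks) and in 11 of the 44 promoters (25%, against 20.4%). The E-box CAGCTG was in 4 windows (17.4%, against 9.63%), its longer form AACAGCTG in 2 (8.70%, against 3.44%) and CACGTG in none (2.14% of all). Motif 1 of fly core promoters, GGTCACACT, was in 1 window, that of CycB (4.35%, against 2.01%), and in 5 promoters (11.4%, against 6.04%). GAGAG was in 2 windows (8.70%, against 25.2%) and 6 promoters (13.6%, against 29.7%).

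Genes of neighbouring pathways were read from 5 further lists. Among 32 other replication genes, 8 had a replicated summit within 500 bp (25%), near the 24.3% of all genes. PolD2, an accessory subunit of polymerase delta, had 511 in replicate 1 and 939 in replicate 2 (7.80 ± 0.38), more than any of the 44 genes. Top1, the topoisomerase that relaxes DNA ahead of forks, had 302 and 420 (4.03 ± 0.59). Both were above 3 times the typical peak in both replicates, while PolD1, the catalytic subunit that PolD2 joins, had no replicated peak. The Mcm2 peak counts for RPA1 in this list too. Of 24 other cyclin and kinase genes 5 had a peak (20.8%), the strongest at Cdk12, a kinase that acts in transcription (1.81 ± 0.34), and CycY was nearest to a peak of 2.27 ± 0.62 farther from its start. Of 7 further genes of the dREAM complex, which represses E2F targets, mip130 had a peak (0.62 ± 0.13). By the nearest rule that summit went to another gene. Genes of the complex among the 44 are not in this count. Of 24 mitosis genes 9 had one (37.5%), with BubR1, a spindle checkpoint kinase, at 1.87 ± 0.59 and cnn, a centrosome protein, at 1.84 ± 0.05. Of 15 DNA damage checkpoint genes 8 had one (53.3%), with the damage kinase mei-41 (the fly ATR) at 4.08 ± 0.21 and p53 at 1.61 ± 0.36. The mei-41 summit went to another gene by the nearest rule. By that rule 29.2% of the mitosis genes and 40.0% of the checkpoint genes had a peak, against 24.7% of all genes.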

How the data were processed

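Peak lists of 2 ChIP-seq libraries, biological replicates of 1 group, were analysed on assembly dm6, per the labels. No source used here names the aligner or the peak caller. The signal of each peak is the value deposited by the authors, with no unit stated. The score is the deposited irreproducible discovery rate (IDR, how well a peak's rank repeats between lists) on a scale up to 1000, and the replicated set holds 830 and higher. Per the file headers and notes, the series-level lists were made from the alignments of both replicates, and each replicate's own lists from its own alignments. The series-level ranked lists hold 16 columns of per-replicate values, which were not used.

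Summits (counted from 1) were compared with all protein-coding transcript starts of Ensembl release 115. For 107 summits several genes tied, and the first gene ID was taken. A replicate's signal is that of its strongest ranked peak overlapping the replicated peak by at least 1 bp. Binomial intervals are exact at 95%. Python 3.11.15, pandas 2.3.3, scipy 1.17.1 and matplotlib 3.10.9 were used, and the steps were tested on simulated data, where 200 of 200 planted peaks returned to their gene. These peaks were planted near starts of 1 gene each, far from other starts, so shared starts and ties were not covered. No test was run, as there is 1 group.

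The genes, the 5 further lists, the letters searched and the naming rule were chosen with earlier results of these data known. All 44 genes are named, with the 2 strongest bound genes of each further list, and sequences are shown for the strongest peaks at a TSS on arms other than 2R, so those of Dp, RnrS and dpa are not shown. Sequences are from the RefSeq FASTA of Release 6. Alternatives covered the peak set, each replicate alone, stricter peaks, distance limits, the definition of a start, scaling, and the windows and letters searched.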

Additional observations from a re-analysis of the deposited data

How the results depend on the processing

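The 13 genes nearest to a replicated summit became 10 to 15 under the other peak sets, stricter peaks, a limit of 1000 bp, gene 5′ ends and competition from all gene classes, and 16 when any TSS within 500 bp counted; leaving out a replicate gave 12 and 13. Over the settings for that count, the share of all genes ran from 15.0 to 31.5%. The 16 genes with a summit within 500 bp became 9 with only the stronger peaks of the set, against 14.5% of all genes. They became 10 within 250 bp, against 20% of all genes, and 16 within 1000 bp, against 27.6%. Leaving out a replicate gave 14 to 16. The median strongest peak of 1.61 times the typical peak became 1.44 and 1.64 with 1 replicate left out and 1.81 with the signal of the replicated set itself. The 0 peak windows with TATCGATA became 1 of 29 in the optimal set, and 1 of 23 and 1 of 24 in the replicates' own sets. The 9 promoters with TATCGATA became 17 with the core ATCGAT. The 0 genes with both that site and a peak at the start became 2 of 17 with the core, 1 of 10 with all annotated starts, 1 of 9 in the optimal set and 1 of 9 in each replicate's own set; the settings for this last count, and all annotated starts, were chosen after seeing the data. The cause of these shifts was not tested. No paired analysis was possible because there is only 1 group. Unknown depth means that a gene without a peak cannot be told apart from one missed at this depth.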
